A study of Rattus norvegicus with 4 samples.

Results

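The genes described here carry inflammatory signals from cytokine receptors to the transcription factors NF-kB and STAT3, and they were followed in the superficial zone (SFZ) and the deeper layers (deep AC) of rat articular cartilage. The set was a list of 45 named genes, kept where the gene had a row in the deposited table that was not 0 in all 4 libraries. This left 33 genes of 31007 gene rows. Relb and Tnfaip3 had no row under these symbols, and 10 genes were listed at 0 in every library: Il1a, Il1b, Il6, Lif, Tlr2, Traf6, Nfkb1, Ikbkg, Socs3 and Ccl2. A 0 of this kind is not read as absence, because Polr2a and Rplp0, which every cell uses, and Sox9, which chondrocytes use, were listed at 0 as well.

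Articular cartilage of the proximal tibia came from 2 Sprague-Dawley rats aged 10 weeks, and SFZ and deep AC were cut out of frozen sections by laser microdissection. The mRNA was amplified linearly and sequenced, which gave 1 library of each zone from each rat. No treatment or genotype is named in the labels, and nothing there says how the border between the zones was set. The comparison is of the surface layer with the cartilage beneath it.

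Cytokines such as interleukin-1 (IL-1) and tumour necrosis factor (TNF) bind receptors on chondrocytes, and adaptors and kinases pass the signal to IkB proteins. IkB proteins hold NF-kB in the cytoplasm until they are broken down, after which NF-kB enters the nucleus and switches on chemokines, matrix proteases and its own inhibitors. Cytokines of the IL-6 family act through the shared receptor chain gp130, the kinases JAK1 and JAK2 and the factor STAT3, with SOCS proteins as feedback inhibitors. In cartilage these pathways are best known for driving matrix breakdown in arthritis.

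The deposited values were log2 values with each row's median over the 4 libraries removed, so each shows how the libraries of a gene differ and not how high the gene is. A difference is SFZ minus deep AC within a rat on this log2 scale, and a difference of 1 is a 2-fold change. Reads were recovered for 26 of the 33 genes, 6 from a floor in the table at 1 scaled read and 20 as the smallest whole reads that match the 4 values; multiples of the latter cannot be told apart from them. At the floor, SFZ had 0 reads and deep AC 0 or 1, or a fraction of 1 read in either, and all are written as 0 reads. Testing with limma was limited to rows averaging 10 scaled reads or more, 8746 in all and 29 of the 33 genes. Osmr, Il1r1, Cxcl1 and Tnf were under that level.

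None of the 29 tested genes passed limma at an adjusted p of 0.05, where 0.0343% of all rows tested passed as higher in SFZ and 0.0686% as lower; 2 genes, Cxcl12 and Cxcl14, had an unadjusted p under 0.05, as did 871 of the 8746 rows. The test had 1 residual degree of freedom. By size, Cxcl12 alone was at least 2-fold higher in SFZ in both rats (1 of 29, against 6.44% of all rows), and Irak1 and Cxcl14 were at least 2-fold lower in both (2 of 29, against 11.9%). With quantile normalization in place of the deposited scaling these counts were 5 and 1, and Irak1 was no longer among them; over all rows 563 were at least 2-fold higher and 1040 lower with the deposited scaling, and 776 and 848 with quantile normalization. In direction alone, 11 genes were higher in SFZ in both rats (background 25.2%), 5 were lower in both (28.9%) and 13 differed in direction between the rats (45.9%). With quantile normalization 16 were higher in both rats and 2, Rela and Cxcl14, lower, against 2501 and 2434 of the 8746 rows. The median of all rows in rat 1 was then 0.01 in place of -0.13. The median mean difference was 0.25 over the 29 genes and -0.11 over all rows. In tissue of this kind fewer cells of a type and less RNA per cell cannot be told apart.

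The zones were checked by their markers. All 5 tested superficial zone markers, Prg4, Clu, Cilp, Thbs4 and Erg, were at least 2-fold higher in SFZ in both rats (background 6.44%). Of 8 tested chondrocyte matrix markers, 7 were at least 2-fold lower in both rats (background 11.9%). Osteoblast markers were lower in SFZ in both rats for 5 of 6 (background 28.9%). Of 17 macrophage and leukocyte markers, 12 and 7 were above the floor in SFZ rat 1 and rat 2, and 11 and 7 in deep AC. Their summed level, over rows with recovered reads, was 4259 and 3105 scaled reads in SFZ and 4743 and 2515 in deep AC. The zones overlapped in this sum, and of 11 tested markers 2 were higher in SFZ in both rats (background 25.2%) and 2 lower (28.9%). Single markers went different ways. C1qa, a complement gene of macrophages, had 119 reads in SFZ rat 1 and 0 in the other libraries. C1qb, C1qc and Tyrobp had 91, 36 and 39 reads in SFZ rat 1 and 0 elsewhere. Aif1 had 167 reads in SFZ rat 1 and 7 in deep AC rat 1. Lyz2 had 1649 and 196 reads in SFZ and 146 and 158 in deep AC. Cd68 instead had 0 and 68 reads in SFZ and 34 and 21 in deep AC. Mrc1 had 1112 and 1436 reads in SFZ and 3524 and 1733 in deep AC. Laptm5 had 10 reads in deep AC rat 1 and 0 elsewhere. Cd74, of antigen presentation, had 40 and 95 reads in SFZ and none in deep AC, and Ptprc, the leukocyte antigen CD45, had 27 and 30 in SFZ and 113 and 66 in deep AC. Of the endothelial markers Cdh5, Tie1, Vwf and Emcn were listed at 0. Pecam1, whose level is not known, was above the floor in all 4 libraries, with differences of -0.94 and 0.16, and the rows with recovered reads summed to 0 in SFZ and to at most 1.99 scaled reads in deep AC.

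The promoters of 4 genes are shown: those of Cxcl12 and Cxcl14, because these 2 genes had the lowest limma p-values of the set, and those of a subunit and an inhibitor of NF-kB that were both higher in SFZ in both rats, Nfkb2 and Nfkbia. Each is the 250 bases before the gene's start, 5′ to 3′ on the gene's strand, from RefSeq on build GRCr8. Capitals mark a match to the consensus kappa B motif, the site that NF-kB binds.
Cxcl12 (chr4:152060531-152060780, plus strand): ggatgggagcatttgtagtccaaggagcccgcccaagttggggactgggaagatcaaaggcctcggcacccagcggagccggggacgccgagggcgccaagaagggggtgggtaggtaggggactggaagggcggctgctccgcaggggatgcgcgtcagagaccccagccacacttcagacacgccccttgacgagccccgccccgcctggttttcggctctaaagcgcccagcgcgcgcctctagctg
Cxcl14 (chr17:8322900-8323149, plus strand): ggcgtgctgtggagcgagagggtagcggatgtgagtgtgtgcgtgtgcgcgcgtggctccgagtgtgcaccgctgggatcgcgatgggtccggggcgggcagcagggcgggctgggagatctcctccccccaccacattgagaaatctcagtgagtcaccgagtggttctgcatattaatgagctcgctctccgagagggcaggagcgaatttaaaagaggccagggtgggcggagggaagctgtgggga
Nfkb2 (chr1:255108124-255108373, plus strand): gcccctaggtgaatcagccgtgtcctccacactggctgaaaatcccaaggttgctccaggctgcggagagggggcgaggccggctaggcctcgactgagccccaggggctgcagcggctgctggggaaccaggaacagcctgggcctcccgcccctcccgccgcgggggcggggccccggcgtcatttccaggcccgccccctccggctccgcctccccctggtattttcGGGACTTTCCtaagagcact
Nfkbia (chr6:78597073-78597322, minus strand): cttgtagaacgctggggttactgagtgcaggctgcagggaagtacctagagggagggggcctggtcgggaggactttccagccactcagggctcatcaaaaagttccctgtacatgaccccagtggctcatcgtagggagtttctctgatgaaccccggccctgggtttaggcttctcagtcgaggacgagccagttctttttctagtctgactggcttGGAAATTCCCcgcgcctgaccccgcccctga

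The Nfkb2 promoter held GGGACTTTCC from 20 to 11 bases before the start, and that of Nfkbia held GGAAATTCCC from 31 to 22 bases before it. The windows of Cxcl12 and Cxcl14 held no match. RefSeq promoters matched 27 of the 33 genes, and 6 of the 27 (22.2%) had the motif on either strand, against 3.54% of 33469 promoters: Il1r1, Il1rap, Nfkb2, Nfkbia, Nfkbiz and Cxcl1. The 2 matches of Cxcl1 overlap. The STAT motif TTCNNNGAA, the same on both strands, was in 2 of 27 (Myd88 and Tnfrsf12a), against 7.67% of all promoters. A match is a string of letters in this window and is not evidence of binding.

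**Figure D1:**
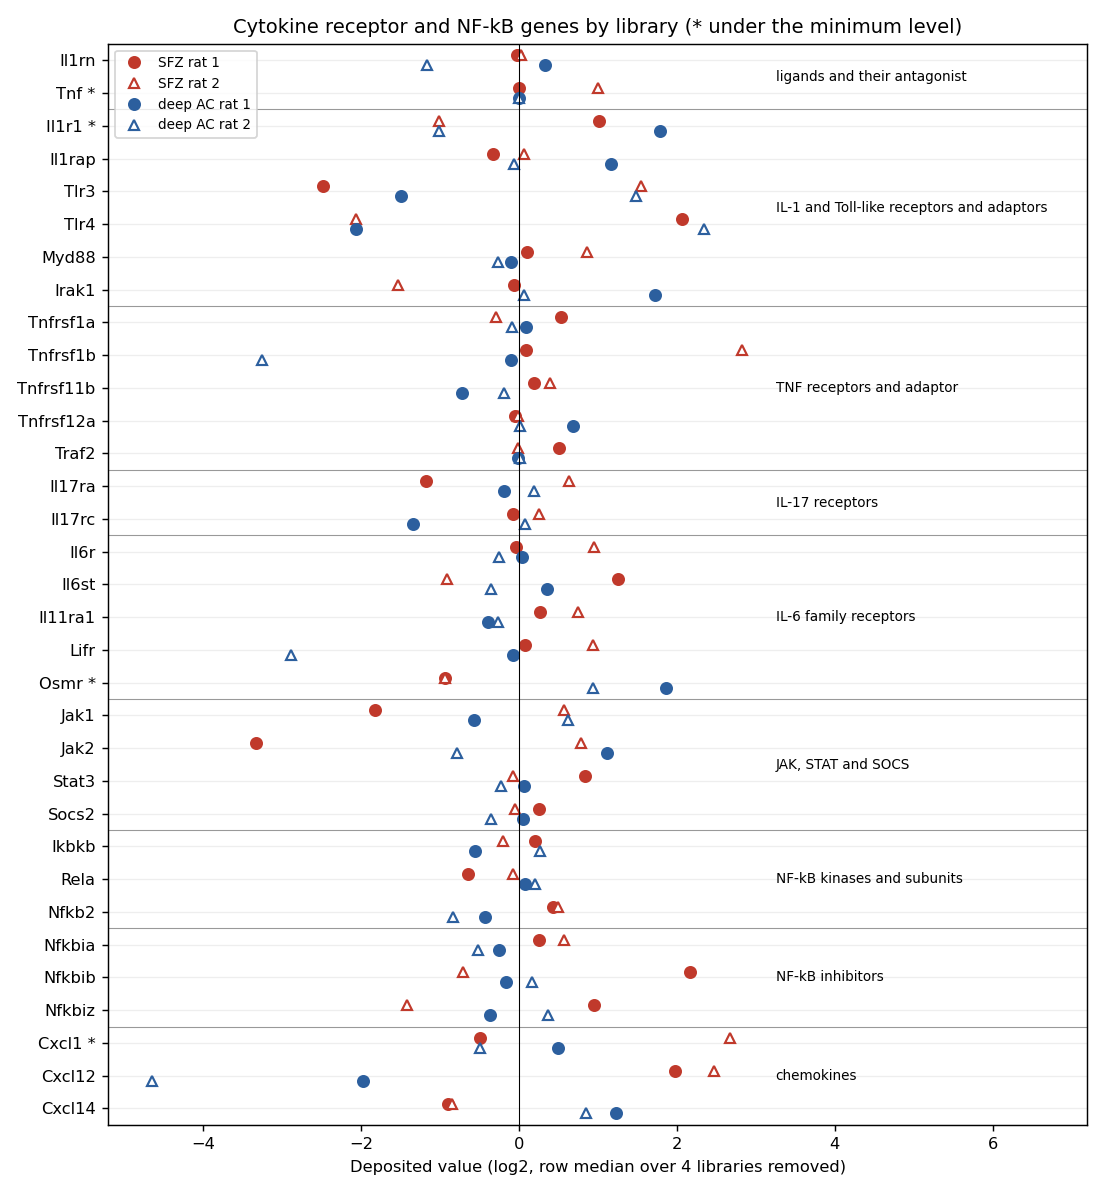
Deposited log2 values, with the row's median removed, of the 33 genes in each of the 4 libraries, ordered by role; red marks SFZ, blue deep AC, filled circles rat 1 and open triangles rat 2. Cxcl12 is high in both SFZ libraries and Cxcl14 in both deep AC libraries, while Tlr4, Jak2, Nfkbib and Nfkbiz differ in opposite directions in the 2 rats.

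The plot of values by library orders the genes by role, as does the account that follows, except that the chemokines come at the start because Cxcl12 and Cxcl14 are among them. Cxcl12 encodes a chemokine that holds and attracts cells bearing its receptor CXCR4 and also binds the scavenging receptor ACKR3. The gene (Entrez 24772, rn4 chromosome 4, 153503576 to 153516423, plus strand) stood at 1.97 and 2.47 in SFZ rat 1 and rat 2 and at -1.97 and -4.65 in deep AC. Both SFZ libraries were above both deep AC libraries by a wide margin. The difference was 3.95 in rat 1, a 15.4-fold higher level, and 7.11 in rat 2, 139-fold, with a mean of 5.53 ± 2.24 (SD, n = 2 rats; SE 0.78; limma adjusted p = 0.138). No whole reads up to a sum of 20000 matched this row, so its level is not known. With quantile normalization the mean difference was 5.50 and the limma adjusted p 1.57e-05. Both values rest on a level set for this row and others without a match. Other levels were not tried with that normalization.

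The receptors of CXCL12 were on a list of other pathway genes. Cxcr7, the older symbol of Ackr3, had 1500 and 1112 reads in SFZ and 259 and 326 in deep AC. It was thus higher in SFZ in both rats, by 2.57 and 1.89, with no overlap between zones (mean 2.23, SE 0.50; limma adjusted p = 0.311). Cxcr4 had 6 reads in deep AC rat 1 and 0 in the other 3 libraries, so no zone difference was detectable at this depth. Beside Cxcl12, synovial and tendon fibroblast markers were at least 2-fold higher in SFZ in both rats for 3 of 11 tested (background 6.44%). They were at least 2-fold lower for 2 (background 11.9%). Thbs4 counts here and among the superficial zone markers. Their summed level, over rows with recovered reads and so without Thbs4, Col15a1, Col1a2, Col3a1 and Clic5, was 3098 and 3345 scaled reads in SFZ and 2124 and 3001 in deep AC. Thy1 and Cd34 were listed at 0, and the part of such cells in the Cxcl12 difference was not tested.

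Cxcl14 went the other way. It encodes a chemokine made without stimulation by many epithelial and connective tissues (Entrez 306748, rn4 chromosome 17, 14286747 to 14295500, plus strand). It had 1395 and 1465 reads in SFZ and 6218 and 5187 in deep AC, rat 1 before rat 2 as throughout. The libraries within each zone were close and the zones did not overlap. Its differences were -2.12 and -1.71, a 4.34-fold and a 3.26-fold lower level in SFZ, with a mean of -1.91 ± 0.29 (SD, n = 2 rats; SE 0.38; limma adjusted p = 0.247; 0.0258 with quantile normalization). Chondrocyte matrix markers and osteoblast markers also stood higher in deep AC, as given above, and their part in the result was not tested. Cxcl1, a neutrophil chemokine that NF-kB induces, had 0 and 9 reads in SFZ, 2 and 0 reads in deep AC, and no zone difference was detectable.

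**Figure D2:**
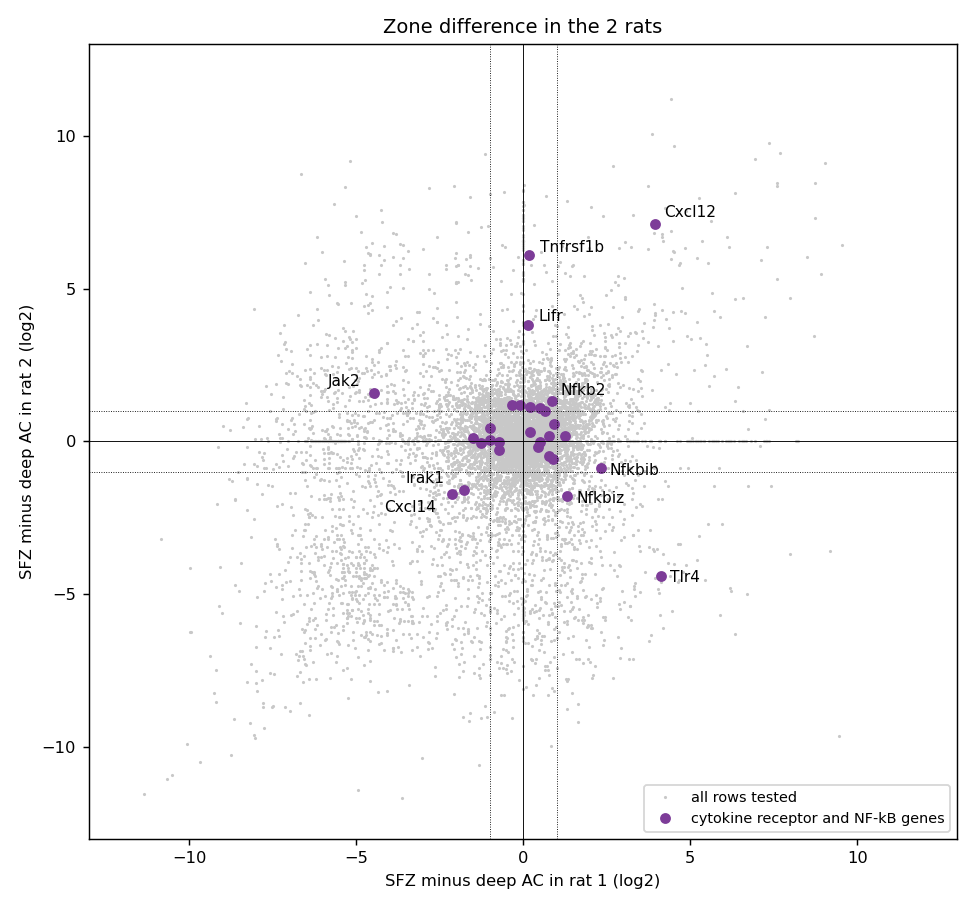
Difference between SFZ and deep AC in rat 1 (x axis) and in rat 2 (y axis), in log2, for 8746 rows tested (grey) and the 29 genes (purple); dotted lines mark differences of 1 and -1. Cxcl12 lies at 3.95 and 7.11 and Cxcl14 at -2.12 and -1.71, and Tlr4 at 4.12 and -4.41 and Jak2 at -4.45 and 1.57 are the genes farthest into the opposite quadrants.

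In the plot of rat 1 against rat 2 few of the other genes stood at least 2-fold apart in both rats. Among the ligands, Il1rn, which encodes the receptor antagonist that blocks IL-1, was the only 1 counted above the minimum level. No reads were recovered for Il1rn, so this rests on the level set for its row. Il1rn stood at -0.02 and 0.02 in SFZ and at 0.33 and -1.16 in deep AC, and the zones overlapped (differences -0.35 and 1.18). Tnf had 2 reads in SFZ rat 2 and 0 in the other 3 libraries. Il1a, Il1b, Il6 and Lif were listed at 0.

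Il1r1, Il1rap and Tlr4 had few reads. The signalling receptor of IL-1, Il1r1, had 4 and 0 reads in SFZ, and deep AC had 7 and 0, so that rat 2 gave none. Il1rap, its accessory chain, had 9 and 12 reads in SFZ and 26 and 12 in deep AC (differences -1.49 and 0.12), and its mean changed sign with quantile normalization. Tlr4, the receptor for bacterial lipopolysaccharide, had 17 and 0 reads in SFZ and 0 and 23 in deep AC. Its direction was thus opposite in the rats, at 4.12 and -4.41. Tlr3, a receptor for double-stranded RNA, differed by -0.99 and 0.06, and its level is not known.

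Myd88 and Irak1, which both act directly behind these receptors, stood on opposite sides. Myd88, the adaptor, had 107 and 184 reads in SFZ and 95 and 92 in deep AC. Its SFZ libraries were above those of deep AC, narrowly in rat 1, with differences of 0.21 and 1.12 (limma adjusted p = 0.887). Irak1, a kinase that MYD88 recruits (rn4 chromosome X, 159960184 to 159969180, minus strand), had 19 and 7 reads in SFZ and 67 and 23 in deep AC. Both SFZ libraries were below both deep AC libraries, with differences of -1.78 and -1.60 and a mean of -1.69 ± 0.13 (SD, n = 2 rats; SE 1.88; limma adjusted p = 0.790). The SE exceeds the mean at this low level. Leaving out 1 library gave means from -2.52 to -0.86, and with quantile normalization the differences were -0.66 and 0.30, opposite in the 2 rats.

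The TNF receptors differed among themselves. Tnfrsf1a, the main signalling receptor of TNF, had 164 and 95 reads in SFZ and 124 and 118 in deep AC. The zones overlapped, with differences of 0.44 and -0.20 and a mean of 0.12 ± 0.45 (SD, n = 2 rats; SE 1.10; limma adjusted p = 0.984). Tnfrsf1b, the other TNF receptor, had 10 and 68 reads in SFZ and 9 and 0 in deep AC. Both SFZ libraries were above deep AC, but the rats gave very unequal differences, 0.19 and 6.09, and the latter is taken against the floor (limma adjusted p = 0.693).

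Tnfrsf11b, which encodes osteoprotegerin, a decoy that binds the osteoclast factor RANKL, was evenly higher in SFZ. It stood at 0.19 and 0.39 in SFZ and at -0.73 and -0.19 in deep AC, without overlap, and the differences were 0.91 and 0.58 (mean 0.74 ± 0.24, SD, n = 2 rats; SE 0.37; limma adjusted p = 0.550). Tnfsf11, the gene of RANKL, was listed at 0. Tnfrsf12a, the receptor of the cytokine TWEAK, had 106 and 111 reads in SFZ and 181 and 123 in deep AC, with differences of -0.73 and -0.03, and of -0.56 and 0.17 with quantile normalization. Traf2, an adaptor of TNF receptors, overlapped between zones, with 197 and 140 reads in SFZ and 141 and 154 in deep AC. The receptors of IL-17 overlapped too: Il17ra differed by -0.98 and 0.44 and Il17rc by 1.26 and 0.17.

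Of the IL-6 family receptors, Il11ra1, the specific chain for IL-11, was higher in SFZ in both rats. It stood at 0.26 and 0.75 in SFZ and at -0.39 and -0.26 in deep AC, without overlap (differences 0.65 and 1.01; SE 0.37; limma adjusted p = 0.526). Il6st, which encodes gp130, the chain that all of these receptors share, stood at 1.26 and -0.92 in SFZ and 0.35 and -0.35 in deep AC. The SFZ libraries lay above and below both deep AC libraries, so the rats differed in direction, at 0.91 and -0.57 (mean 0.17 ± 1.04, SD, n = 2 rats; SE 0.48; limma adjusted p = 0.936).

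Il6r, the specific chain for IL-6, had 346 and 704 reads in SFZ and 377 and 331 in deep AC, with SFZ rat 2 standing apart from the other 3 libraries. Lifr, the chain for LIF, had 14 and 26 reads in SFZ and 13 and 2 in deep AC, so its zones differed mainly in rat 2 (0.14 and 3.82). Osmr, the chain for oncostatin M, was at the floor in SFZ in both rats, and deep AC had 7 and 4 reads. Measured against 3 reads over both SFZ libraries it was at least 3.51-fold lower in SFZ, it was not tested, and this bound covers counting error only. Over all rows 8235 and 8354 were above the floor in SFZ, and 10024 and 9223 in deep AC; 811 were above 0 in deep AC rat 1 alone, against 123 to 297 in each other library. The part of this in Osmr, and in the genes below with no reads in SFZ, was not tested.

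Behind these receptors, Stat3, the main transcription factor of the IL-6 family, had 2511 and 1367 reads in SFZ and 1511 and 1327 in deep AC. It was higher in SFZ within each rat, by 0.77 and 0.16, but SFZ rat 2 lay below deep AC rat 1 (mean 0.47 ± 0.43, SD, n = 2 rats; SE 0.40; limma adjusted p = 0.727). Without SFZ rat 1 the mean was 0.011 and without SFZ rat 2 it was 0.92, and with quantile normalization the rat 2 difference was -0.03. Socs2, a feedback inhibitor that responds mainly to growth hormone, differed by 0.19 and 0.30 with overlapping zones, and Socs3, the usual feedback inhibitor of STAT3, was listed at 0. Jak1 had 16 and 86 reads in SFZ and 39 and 96 in deep AC, and Jak2 4 and 71 against 90 and 26. For Jak1 the zones overlapped, with differences of -1.25 and -0.04 and a mean that was positive, 0.31, with quantile normalization, and for Jak2 the rats went opposite ways, at -4.45 and 1.57.

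**Figure D3:**
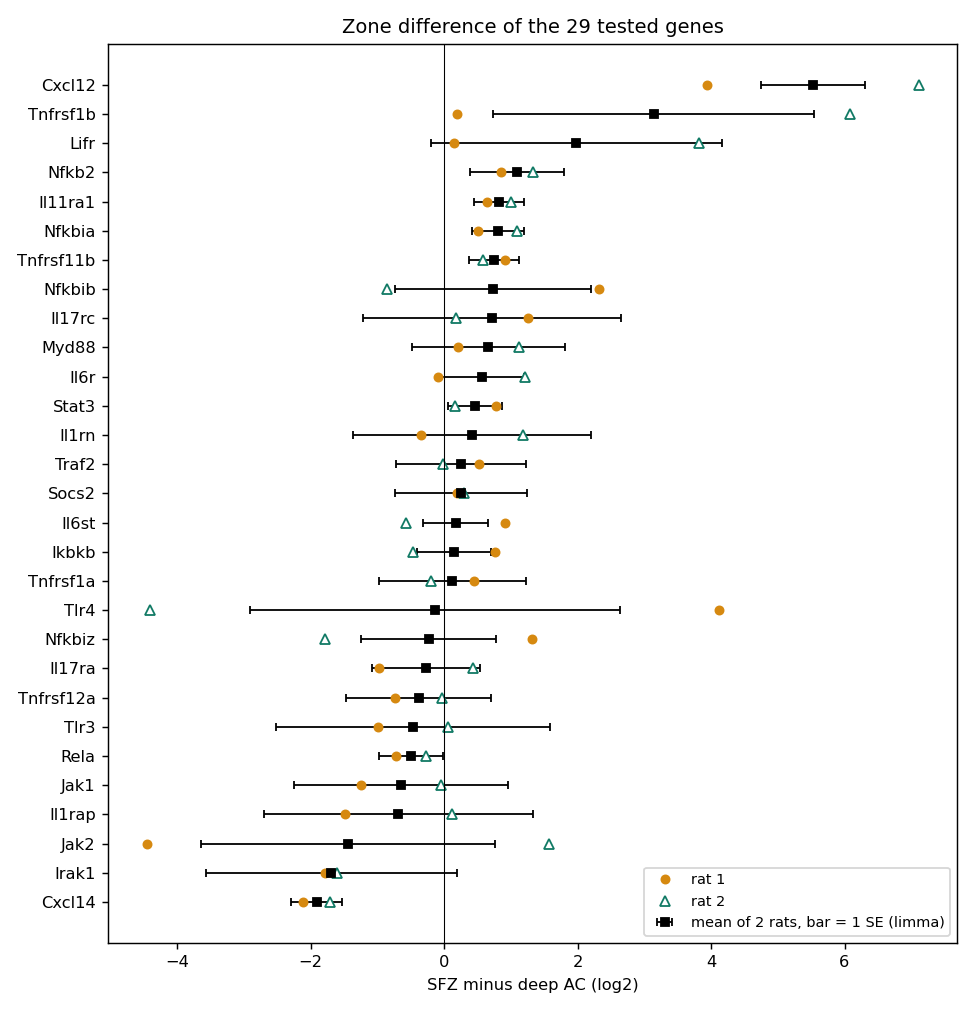
Difference between SFZ and deep AC in log2 for the 29 tested genes, in order of the mean: black squares are means of 2 rats with bars of 1 SE from limma, orange circles rat 1 and open green triangles rat 2. Nfkb2, Il11ra1, Nfkbia and Tnfrsf11b lie together at means from 0.74 to 1.10 with the rats close to each other, whereas Tnfrsf1b, Tlr4 and Jak2 have rats far apart.

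The plot of mean differences places Nfkb2 and Nfkbia among the genes whose rats stood close together. Nfkb2 encodes p100, the precursor of the p52 subunit of the noncanonical pathway. It had 389 and 417 reads in SFZ and 221 and 179 in deep AC, without overlap, and differed by 0.85 and 1.34 (mean 1.10 ± 0.34, SD, n = 2 rats; SE 0.71; limma adjusted p = 0.643). Rela, which encodes the p65 subunit of the canonical pathway, was on the other side, with 418 and 638 reads in SFZ and 707 and 837 in deep AC. Its zones did not overlap either, and the differences were -0.72 and -0.27 (mean -0.50 ± 0.32, SD, n = 2 rats; SE 0.49; limma adjusted p = 0.754). The mean was -0.21 without SFZ rat 1 and -0.79 without SFZ rat 2. Ikbkb, the kinase that marks IkB proteins for breakdown, had 699 and 539 reads in SFZ and 422 and 809 in deep AC, opposite in the rats. Nfkb1, the partner of p65, and Ikbkg, the regulatory subunit of the kinase, were listed at 0.

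Nfkbia encodes IkB-alpha, the best known IkB and itself a target of NF-kB. It stood at 0.26 and 0.57 in SFZ and at -0.26 and -0.52 in deep AC. Both SFZ libraries were above both deep AC libraries, with differences of 0.51 and 1.09 and a mean of 0.80 ± 0.41 (SD, n = 2 rats; SE 0.39; limma adjusted p = 0.536). The other inhibitors varied within SFZ. Nfkbib, which encodes IkB-beta, had 278 and 39 reads in SFZ and 57 and 77 in deep AC, and Nfkbiz, a nuclear IkB protein that cytokines induce, had 497 and 98 reads in SFZ and 204 and 368 in deep AC. SFZ rat 1 was the highest and SFZ rat 2 the lowest library for each, so the differences were 2.32 and -0.86 for Nfkbib and 1.32 and -1.79 for Nfkbiz.

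In all, both SFZ libraries were above both deep AC libraries for 8 of the 29 genes (background 19.6%): Cxcl12, Nfkb2, Nfkbia, Il11ra1, Tnfrsf11b, Tnfrsf1b, Lifr and Myd88. They were below both for 4 (background 22.9%): Cxcl14, Rela, Irak1 and Tnfrsf12a. For another 3 genes, Tlr4, Jak2 and Nfkbiz, the rats gave differences of 2-fold or more with opposite signs (3 of 29, against 11.1% of all rows).

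Of 135 other genes of the same pathways in 4 lists, 124 had a row, 39 of these were listed at 0 and 69 were tested. None passed limma at an adjusted p of 0.05, and 11 had an unadjusted p under 0.05, as did 871 of all 8746 rows. At least 2-fold in both rats, 7 were higher in SFZ (background 6.44%) and 12 lower (11.9%), and in direction alone 16 were higher in both rats (25.2%) and 27 lower (28.9%). Their median mean difference was -0.35, against -0.11 over all rows.

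Other receptors and adaptors of the IL-1, TNF and Toll-like families were lower in SFZ in both rats for 10 of 19 tested (background 28.9%) and higher for 3 (25.2%). Irak4, the kinase that acts with IRAK1, differed by -7.04 and -3.94 (SE 2.06; limma adjusted p = 0.496). Il17re, the chain that binds IL-17C, gave 48 and 9 reads in deep AC but none in SFZ, where it was at least 18.5-fold lower. Tnfrsf25, a death domain receptor, had 0 and 25 reads in SFZ and 48 and 55 in deep AC. Tnfrsf11a, the receptor of RANKL, had 73 and 2 reads in SFZ and 17 and 0 in deep AC, so it was higher in SFZ within each rat while the zones overlapped.

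Other kinases, subunits and inhibitors of NF-kB were higher in SFZ in both rats for 3 of 14 tested (background 25.2%) and lower for 5 (28.9%). Map3k14, which encodes the NF-kB-inducing kinase of the noncanonical pathway, was the single gene at least 2-fold apart in both rats, with 20 and 0 reads in SFZ and 71 and 24 in deep AC (differences -1.79 and -4.47; limma adjusted p = 0.653). Nfkb2, of the same pathway, stood on the other side.

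The list of the IL-6 family, other cytokine receptors and the JAK and STAT proteins had 8 of 22 tested higher in SFZ in both rats (background 25.2%) and 7 lower (28.9%). Cntf, ciliary neurotrophic factor, gave 48 and 101 reads in deep AC and none in SFZ, a level at least 46.5-fold lower (limma adjusted p = 0.466). It acts through gp130 and the LIF receptor chain. Jak3, a kinase of lymphoid cytokine receptors, had 17 and 1 reads in SFZ and 60 and 86 in deep AC. Il15, a cytokine that acts on lymphocytes, was higher in SFZ, with 8 and 75 reads against 0 and 2. Osteoblast markers moved with Cntf, as 5 of 6 were lower in SFZ in both rats, and their part was not tested.

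Of target genes and other chemokines, 5 of 14 tested were lower in SFZ in both rats (background 28.9%) and 2 higher (25.2%). Mmp13, the main collagenase of cartilage, gave 254 and 116 reads in deep AC and none in SFZ, where it was at least 119-fold lower (limma adjusted p = 0.402). Mmp3, stromelysin, differed by -10.84 and -3.21. Cx3cl1, fractalkine, a membrane-bound chemokine, had 15 and 1 reads in SFZ and 550 and 237 in deep AC, with differences of -5.16 and -7.77 (limma adjusted p = 0.403). Cxcr7, given above, was the gene at least 2-fold higher. Thus Cxcl12 and its receptor Cxcr7 stood higher in SFZ, and Cxcl14 and Cx3cl1 stood higher in deep AC, in both rats.

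**Figure D4:**
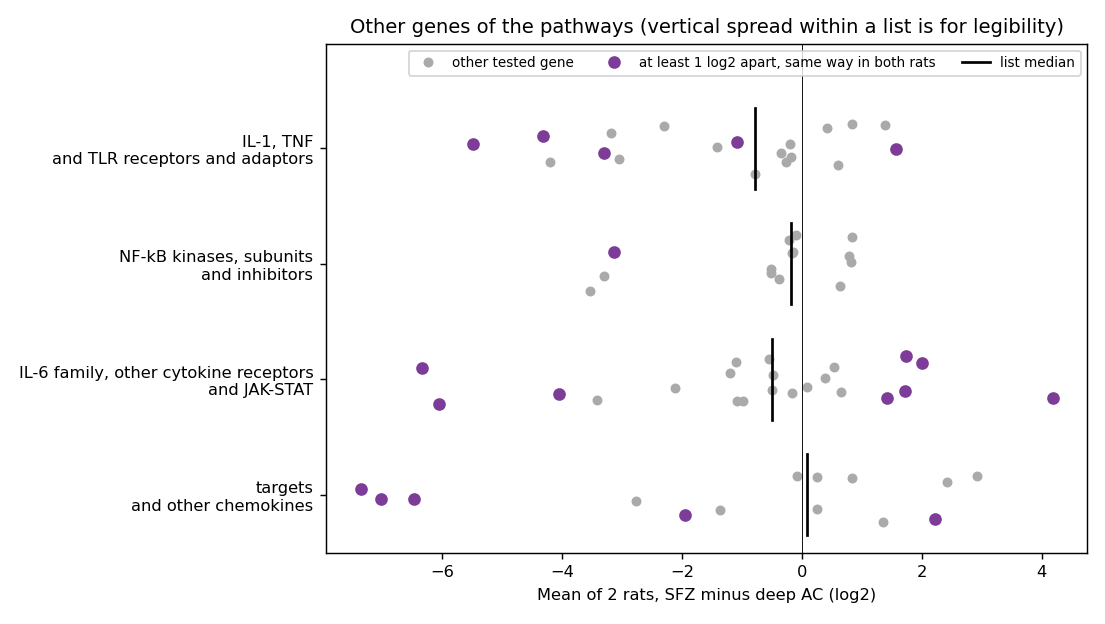
Mean difference between SFZ and deep AC in log2 for the 69 tested genes of the 4 other lists; purple marks genes whose 2 rats both differ by 1 or more with the same sign, and black lines the list medians. The genes spread from -7.36 to 4.19, and 12 of the purple genes lie on the deep AC side and 7 on the SFZ side.

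The plot of other pathway genes gives the spread within each list, from -0.77 as the median of the first list to 0.09 as that of the targets and chemokines.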

How the data were processed

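RNA-seq libraries of 4 samples were used, SFZ and deep AC of 2 rats, and per the labels' protocols the RNA was extracted with a PicoPure kit, amplified linearly with a RiboAmp kit and made into TruSeq libraries. The authors deposited 1 table of log2 values, whose title names TMM scaling; per the submitters' processing notes the build was rn4. The aligner, the counting program and the strand setting, not given in the sources used here, are unknown, so overlapping genes and near-identical copies could share reads. The largest absolute row median was 9.54e-07. Values were tested as log2 levels with nothing added, since levels had been removed by the authors; this differs in no step from the planned test except in how the level was obtained.

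Rows above 0 in a single library were whole multiples of a constant for 93.98% to 96.75% of rows (relative tolerance 1e-05), which gave the value of 1 read: 1.02 and 1.00 in SFZ and 0.996 and 0.923 in deep AC. A floor at 1 scaled read fixed the level of 3375 rows. In 7414 rows without a floor value, the smallest whole reads that match to 1e-06, with a sum of at most 20000, were sought. They were found for 72.4%, but for 6 rows once the values were jittered by up to 0.01. In simulated rows the true reads came back in 92.7% of 1178 matches, and in 100% when a common divisor is allowed for. Rows with no match were set at the limit of 20000 reads (1477 rows) or, where the binary places of the values did not allow that, at the lowest level they allow (569 rows); this rule replaced the lowest level for all such rows because coarse places also arise by chance, a change made when the calls of the earlier rule were known (1, against 9 with the rule used). The recovered reads summed to 3735399 and 3930380 in SFZ and 3748905 and 3869718 in deep AC, and total depth is unknown. Intervals and bounds cover counting error only, since amplified reads are not independent molecules.

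Rows averaging 10 scaled reads or more were fitted in R 4.3.3 with limma 3.58.1, with zone and rat as terms, a trended prior, two-sided tests and Benjamini-Hochberg adjustment over all rows tested. The titles tie both zones to 1 rat, and so the rat was a block; across genes the rat difference in SFZ and that in deep AC had a correlation of 0.05, and genes are not independent replicates. The p-values rest on the spread between 2 rats combined with the trended prior, which is drawn from all rows tested and depends on a gene's level. A gene's SE can thus lie far from its own rat spread. Irak1 had an SD of 0.13 and an SE of 1.88, and Cxcl12, whose level is not known, an SD of 2.24 and an SE of 0.78. Tested on counts simulated for the 8746 rows with a dispersion of 1, the zone test called 3% of genes changed by 3 on the log2 scale and 36% of those changed by 6, with 9 false calls, as many as the calls made on the data. With a dispersion of 0.05 it called 100% of both, with 3 false calls. Both dispersions were set and not estimated from these libraries, and the simulated counts held no rat effect. The false calls therefore cannot say how many of the calls on the data are false.

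Every listed gene is named; full statistics went to genes that differed 2-fold or more with the same sign in each rat, to those at the floor in both libraries of a zone and to 9 main receptors, subunits, inhibitors and effectors, and of the other lists up to 4 tested genes with the largest mean difference were named among those 2-fold apart in both rats. Of these, 1 gene is not reported here. Genes outside these rules were named after their values had been seen. The members and lists were chosen with earlier results of these data known. Alternatives were no rat term, each library left out, quantile normalization, other minimum levels, 1 added before the log2, an untrended prior and 2 other levels for unmatched rows.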

Additional observations from a re-analysis of the deposited data

How the results depend on the processing

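The number of calls over all genes, 9 with the deposited scaling, moved with nearly every setting. It was 0 with no replicate block, with no minimum level, with a minimum mean level of 100 scaled reads and with an untrended prior. It was 179 with quantile normalization, 16 with 1 added before the log2, and 1 with unmatched rows at the lowest level of their binary places, a setting chosen after seeing the data, as was that with unmatched rows at 10 times the limit (10 calls). Leaving out 1 library gave 0 to 405 calls: 0 without SFZ rat 1 or SFZ rat 2, 366 without deep AC rat 1 and 405 without deep AC rat 2. Of the last, 307 and 342 had no reads above the floor in SFZ, which leaves no spread in the only zone that still has 2 libraries. These fits have no rat term and take the lone library to vary like the others.

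Members past the limma threshold were 0 in every setting except quantile normalization, with 2: Cxcl12 (mean difference 5.50) and Cxcl14 (-1.99). That fit used only the main level set for unmatched rows, which include Cxcl12. Over all settings the limma adjusted p ran from 1.57e-05 to 0.350 for Cxcl12 and from 0.0258 to 0.497 for Cxcl14, and without 1 library the mean difference ran from 4.19 to 6.87 and from -2.10 to -1.73. Quantile normalization gave 5 members at least 2-fold higher in both rats (Il1rap, Tnfrsf1b, Il17rc, Lifr and Cxcl12) and 1 lower, and a minimum of 100 scaled reads gave 1 lower. With quantile normalization the median over all rows in rat 1 was 0.01, against -0.13, and 776 rows were then at least 2-fold higher and 848 lower, 52.2% lower against 64.9% (563 and 1040). The members' median was 0.42 with quantile normalization and 0.24 to 0.51 without 1 library. Counts of genes 2-fold apart in both rats need both rats and have no value without a library.

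Quantile normalization turned the mean of Il1rap (1.77), Tlr3 (1.55), Tlr4 (0.87), Jak1 (0.31) and Ikbkb (-0.027). Leaving out 1 library turned the sign of 12 genes, none called: Ikbkb ran from -0.27 to 0.56, Il1rn from -0.33 to 1.16, Tlr3 from -2.48 to 1.55, Tlr4 from -2.35 to 2.06, Il6st from -0.92 to 1.26, Nfkbiz from -1.42 to 0.95, Tnfrsf1a from -0.29 to 0.53, Traf2 from -0.012 to 0.51, Il17ra from -1.18 to 0.63, Jak1 from -1.84 to 0.55, Jak2 from -3.50 to 0.62 and Nfkbib from -0.70 to 2.16. The cause was not tested. Low reads limit Il1r1, Osmr, Tnf, Cxcl1 and Irak1. They also limit Il1rap, Tnfrsf1b, Il17rc and Lifr, which were at least 2-fold higher in both rats only with quantile normalization. Il17rc had 21 and 27 reads in SFZ and 9 and 26 in deep AC. The fit without the rat term changed no call of a member.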

Other observations

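Genes of type I interferon and IL-10 family receptors were also higher in SFZ in both rats; they lay outside the rule for named genes and were chosen after their values had been seen. Ifnar1, a chain of the type I interferon receptor, had 5684 and 4207 reads in SFZ and 1792 and 2046 in deep AC (differences 1.70 and 1.16; limma adjusted p = 0.389). Stat2, which acts behind that receptor, had 423 and 177 reads in SFZ and 134 and 56 in deep AC (1.70 and 1.78; 0.588). Il10rb, a chain shared by receptors of the IL-10 family, had 464 and 627 reads in SFZ and 133 and 152 in deep AC (1.84 and 2.16; 0.474). The zones did not overlap for any of the 3, and none passed the test. Ifnar2, the other chain of the interferon receptor, was on the same list but had no row or was listed at 0, so it gave no difference.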
